A study of Mus musculus with 4 samples.

Results

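Serum response factor (SRF), 3 of its partner proteins and 6 genes known for rapid transcription after a stimulus were followed across 4 RNA-sequencing libraries of cultured mouse hippocampal neurons. The 10 genes were chosen by symbol: Srf, Mkl1, Mkl2 and Elk1 on the side of the transcription factors, and Cyr61, Ctgf, Ier2, Ier3, Ier5 and Csrnp1 on the side of the fast-responding genes. All 10 were found, each as a single row, among 21722 gene symbols kept and 13458 compared. The cultures came from newborn CD1 mice, an outbred strain, and were infected on day 4 in vitro with a lentivirus. In Kdm6b shRNA cultures the virus expressed a short hairpin RNA against Kdm6b, a demethylase of histone H3 lysine 27, and in vector cultures it was pLKO.1 with no such hairpin. On day 11 each kind of culture either received bicuculline (50 µM, reading the labelled unit as micromolar) with 2.5 mM 4-aminopyridine for 3 h (Bic/4AP) or was left untreated. Bicuculline is an antagonist of GABA-A receptors and 4-aminopyridine a blocker of potassium channels, and the combination raises synaptic firing.

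Each of the 4 conditions was 1 library, the hairpin was a single one, and the labels do not say how many animals were pooled. No difference was therefore tested and none has a replicate check. Levels are in FPKM, a fragment count scaled by transcript length and by sequencing depth, as deposited by the authors. The bounds printed after a level are the authors' lower and upper bounds. The sources used here do not state their model, and they were taken to cover counting and read assignment within that library only. Differences were taken between log2(FPKM + 1) values, which makes those of genes at low levels smaller than they are, and a difference of at least 1 was called 2-fold. Total counts were not used here. The width of the bounds put the depth of the libraries at 0.994 (shRNA Bic/4AP), 1.04 (shRNA untreated) and 0.932 (vector Bic/4AP) of the vector untreated library. Depth was thus within a narrow range, and the bounds of the 10 genes reached at most 12.9% of the value on either side. Gene positions are in mouse build mm9.

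SRF binds CArG boxes, short A/T-rich elements flanked by CC and GG. Partner proteins of the Elk kind bind next to SRF and are activated by ERK kinases, which lead to fast, transient transcription of genes such as Fos and Egr1. The Mkl proteins, also called myocardin-related transcription factors, are held back by monomeric actin and reach SRF when actin polymerises. In neurons SRF is known for activity-dependent transcription and for cytoskeletal genes of neurites.

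The hairpin's target was lower in the hairpin cultures. Kdm6b (chr11:69212020-69227177) stood at 4.83 FPKM in shRNA Bic/4AP and 2.73 in shRNA untreated cultures, against 13.1 in vector Bic/4AP and 6.74 in vector untreated cultures. The hairpin level was 36.8% of the vector level with Bic/4AP and 40.6% without.

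Marker genes showed that the cultures were mixed. The 7 neuron markers summed to 1462.2 to 1737.8 FPKM per library and the 7 astrocyte markers to 2714.7 to 3062.5. The neuron markers did not move together. Nefl was at 585.6 (shRNA) and 529.5 FPKM (vector) with Bic/4AP, against 232.6 and 257.6 untreated, and Nefm was also higher. Tubb3, Rbfox3, Syn1 and Syt1 were lower with Bic/4AP in both backgrounds, and Snap25 in vector cultures only. Microglia markers summed to 17.1 and 17.7 FPKM in the shRNA libraries, against 37.4 and 40.01 in the vector libraries. Endothelial markers summed to 4.09 to 6.19 FPKM, most of it Kdr, with Cldn5 listed at 0 in vector Bic/4AP and at most 0.0349 elsewhere. Oligodendrocyte lineage markers summed to 67.03 and 70.5 FPKM in the shRNA libraries, against 89.6 and 81.7 in the vector libraries. Mural markers summed to 2.15 to 3.30 and fibroblast and meningeal markers to 16.4 to 22.04. In bulk RNA, fewer cells of a type and less RNA per cell cannot be told apart.

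With Bic/4AP, all of the fast-responding genes but Ctgf were higher, and Srf, Mkl1, Mkl2 and Elk1 were not 2-fold apart. Cyr61, Ier2, Ier3, Ier5 and Csrnp1 were at least 2-fold higher, 5 of 10 genes in shRNA cultures, where 2.08% of 13320 genes were 2-fold higher, and the same 5 of 10 in vector cultures, where 2.22% of 13217 genes were. None of the 10 was 2-fold lower, a call made for 0.158% of genes in shRNA and 0.272% in vector cultures. Mkl1, Mkl2, Elk1 and Ctgf stood lower in both backgrounds by less than 2-fold, and Srf was nearly level. The median difference of the 10 genes was 0.61 in shRNA cultures and 0.69 in vector cultures, beside -0.082 and -0.069 over all genes. With non-overlapping authors' bounds as the mark, 5 genes were higher and 4 lower in shRNA cultures, where 17% of all genes were higher and 37.6% lower. In vector cultures 6 were higher and 4 lower, where the shares were 21.8% and 37%. Non-overlapping bounds were thus common among all genes, in the lower direction above all.

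**Figure D1:**
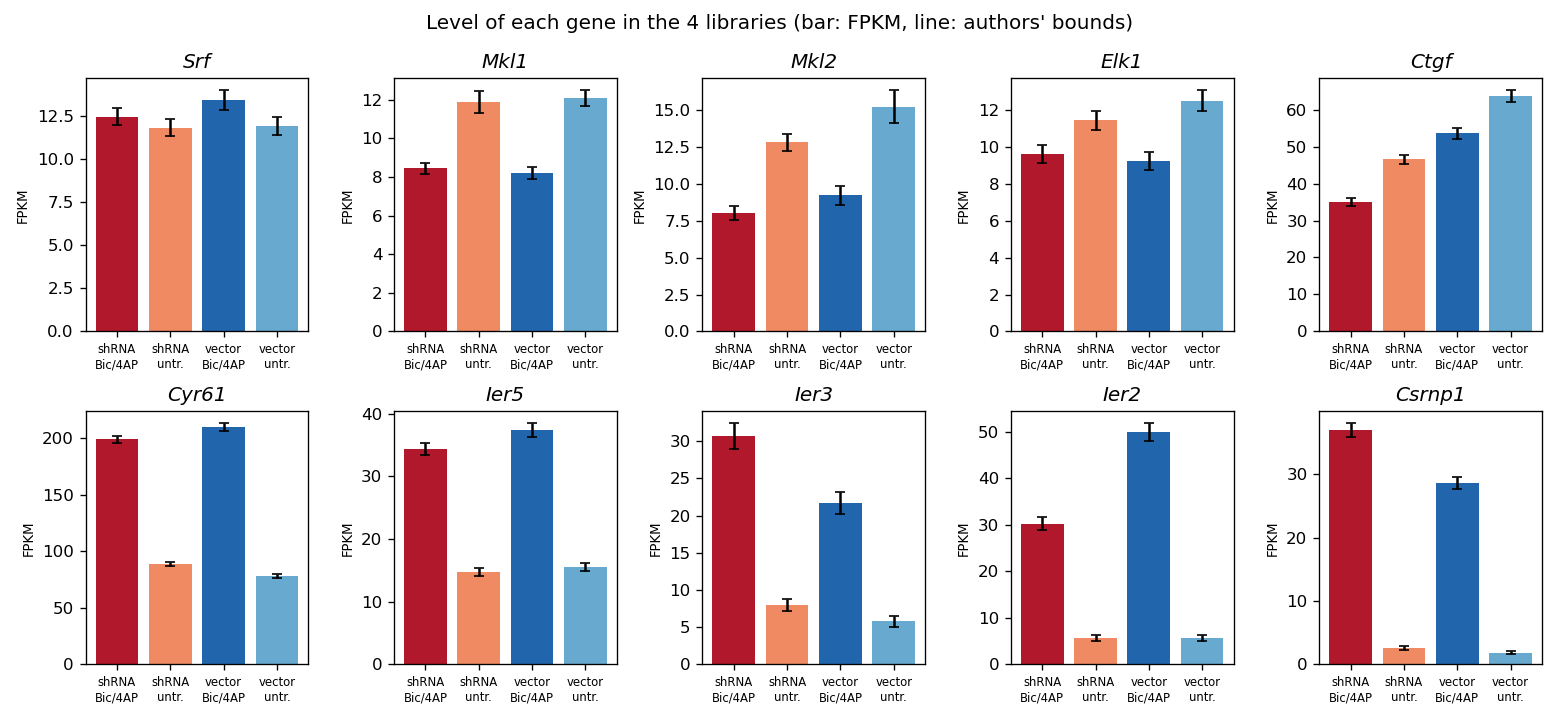
FPKM of each of the 10 genes (vertical axis, linear, from 0, scaled per gene) in the 4 libraries: shRNA Bic/4AP, shRNA untreated, vector Bic/4AP and vector untreated; bars are the deposited values and lines the authors' bounds. Csrnp1 and Ier2 have low untreated bars (1.87 to 5.71 FPKM) and high Bic/4AP bars (28.6 to 50.0), whereas Mkl1 and Mkl2 are lower with Bic/4AP in both backgrounds.

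Srf itself (chr17:46683788-46693111) was at 12.5 FPKM (11.95 to 12.997) in shRNA Bic/4AP and 11.8 (11.3 to 12.3) in shRNA untreated cultures, and at 13.4 (12.9 to 13.99) in vector Bic/4AP and 11.9 (11.4 to 12.4) in vector untreated cultures. All 4 levels lay close together. Its Bic/4AP difference was 0.07 in shRNA cultures, with overlapping bounds and a value of -0.10 when libraries were scaled to the sum of all rows, and 0.16 in vector cultures. SRF is known to act on its own gene, and the stretch from 130 to 45 bases before its RefSeq start is shown because it holds both CArG boxes found in the promoter window (GRCm38.p6, chr17:46556207-46556292, minus strand, printed 5′ to 3′). Capitals mark an Ets core and the boxes.
Srf: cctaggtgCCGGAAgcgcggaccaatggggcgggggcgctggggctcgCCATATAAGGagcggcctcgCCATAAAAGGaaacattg
A CArG box was present in 1.63% of 32851 RefSeq promoter windows of the same 300 bases, and the Ets core CCGGAA, the DNA word of Elk-type factors, in 14.9%. Windows were given for 8 of the 10 genes, not for Ctgf and Ier2, and of these 8 only Srf had a CArG box.

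Mkl1 and Mkl2, the genes of the actin-regulated coactivators, were both lower with Bic/4AP. Mkl1 (chr15:80842711-81021187, a locus that overlaps that of Sgsm3) was at 8.44 FPKM (8.15 to 8.73) in shRNA Bic/4AP and 11.9 (11.3 to 12.5) in shRNA untreated cultures. In vector cultures it was at 8.21 FPKM (7.90 to 8.51) with Bic/4AP and 12.1 (11.7 to 12.5) untreated. The Bic/4AP levels were 0.71 and 0.679 times the untreated levels in shRNA and vector cultures, and the bounds of treated and untreated libraries did not overlap. Mkl2 (chr16:13256574-13417622) was at 8.03 FPKM (7.54 to 8.53) in shRNA Bic/4AP, 12.8 (12.2 to 13.4) in shRNA untreated, 9.26 (8.61 to 9.90) in vector Bic/4AP and 15.2 (14.1 to 16.4) in vector untreated cultures. Its ratios were 0.626 in shRNA cultures and 0.607 in vector cultures, differences of -0.61 and -0.66. Mkl2 stood lowest of the 10 genes in both backgrounds, with 2.03% (shRNA) and 2.31% (vector) of all genes at or below its difference. The excitatory neuron markers, measured beside it, summed to 402.4 FPKM in shRNA Bic/4AP and 465.5 in shRNA untreated cultures. In vector cultures they summed to 466.1 FPKM with Bic/4AP and 648.2 untreated. The sums of the neuron and astrocyte markers were instead higher with Bic/4AP in both backgrounds, as was Slc17a6 within the excitatory list. The part of these markers in the Mkl values was not tested.

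Elk1 (chrX:20510521-20527726), the ERK-activated partner of SRF, was at 9.64 FPKM (9.15 to 10.1) in shRNA Bic/4AP and 11.5 (10.9 to 11.98) in shRNA untreated cultures. In vector cultures it was at 9.25 FPKM (8.75 to 9.75) with Bic/4AP and 12.5 (11.95 to 13.1) untreated. The ratios of 0.841 and 0.739 were both below 1 with bounds apart, and 24.1% (shRNA) and 11.4% (vector) of all genes were at or below its difference. Among the related factors, Elk4 was higher with Bic/4AP and Elk3 was not. Elk4 was at 4.88 FPKM in shRNA Bic/4AP, 2.65 in shRNA untreated, 4.36 in vector Bic/4AP and 2.89 in vector untreated cultures, differences of 0.69 and 0.46 that did not reach 2-fold. Elk3 differed by 0.03 in shRNA and 0.00 in vector cultures. Myocd, the gene of the muscle coactivator myocardin, was below 1 FPKM in every library. Over the 6 genes of SRF and its cofactors that were compared, 3 were above 0 and 3 below, none was 2-fold apart, and the medians were -0.10 in shRNA and -0.20 in vector cultures.

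**Figure D2:**
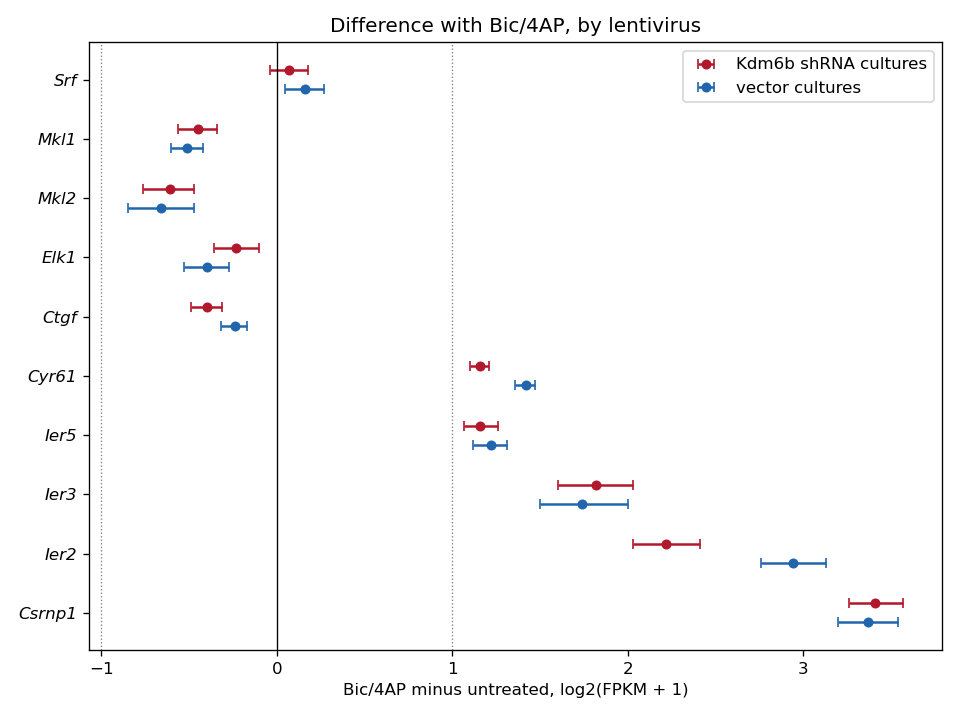
Difference between Bic/4AP and untreated cultures in log2(FPKM + 1) (horizontal axis) for each gene (rows), in Kdm6b shRNA cultures (red, upper point) and vector cultures (blue, lower point); lines are ranges from the authors' bounds and dotted lines mark 2-fold. Cyr61, Ier5, Ier3, Ier2 and Csrnp1 lie right of 1 in both backgrounds (1.16 to 3.41), and the ranges of Ier2 do not overlap between backgrounds.

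Cyr61 and Ctgf, the paired CCN genes for secreted matrix-associated proteins that are known targets of both SRF and the YAP and TEAD factors, moved apart. Cyr61 (chr3:145309935-145312949) was the most abundant of the 10 genes in every library. It was at 199.0 FPKM (195.99 to 202.1) in shRNA Bic/4AP and 88.7 (86.7 to 90.7) in shRNA untreated cultures. In vector cultures it was at 209.6 FPKM (206.4 to 212.9) with Bic/4AP and 77.9 (76.0 to 79.8) untreated. Both Bic/4AP levels lay above both untreated levels, with ratios of 2.24 (2.16 to 2.33) in shRNA and 2.69 (2.59 to 2.80) in vector cultures. The difference was 1.16 in shRNA and 1.42 in vector cultures, and the gap between them of -0.26 had a range from the bounds of -0.37 to -0.15. The Cyr61 promoter (Ccn1 in RefSeq, GRCm38.p6, chr3:145650031-145650096, minus strand) is shown from 111 to 46 bases before the start. Capitals mark the TEAD word GGAATG, here on the opposite strand, and the CRE core, TGACG, also on the opposite strand.
Cyr61: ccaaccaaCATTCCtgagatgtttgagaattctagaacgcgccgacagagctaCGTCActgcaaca
The TEAD word was present in 14.7% of all promoter windows and the CRE core, part of the word bound by CREB, in 20.8%.

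Ctgf (chr10:24315248-24318488) was lower with Bic/4AP and lower with the hairpin. It was at 35.02 FPKM (33.9 to 36.2) in shRNA Bic/4AP, 46.6 (45.3 to 47.9) in shRNA untreated, 53.7 (52.2 to 55.1) in vector Bic/4AP and 63.6 (62.1 to 65.2) in vector untreated cultures. No bounds overlapped between any of the 4 libraries, and both hairpin libraries lay below both vector libraries. The Bic/4AP ratio was 0.752 in shRNA and 0.843 in vector cultures, with 8.27% and 25.2% of all genes at or below its difference.

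Ier2, Ier3 and Ier5 are named as immediate early response genes. Ier2 and Ier5 encode related nuclear proteins, and Ier3 encodes an unrelated, short-lived regulator of cell survival that is a known target of NF-kappaB. Ier2 (chr8:87185230-87186751) was at 30.2 FPKM (28.8 to 31.6) in shRNA Bic/4AP and 5.71 (5.12 to 6.30) in shRNA untreated cultures. In vector cultures it was at 50.0 FPKM (48.1 to 51.8) with Bic/4AP and 5.65 (5.05 to 6.25) untreated. The bounds of the untreated levels overlapped between the backgrounds, and those of the Bic/4AP levels were far apart. The ratio was 5.29 (4.57 to 6.17) in shRNA cultures, 64th of 13320 genes from the highest difference, and 8.85 (7.70 to 10.3) in vector cultures, 28th of 13217.

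Ier3 (chr17:35958658-35959856) was at 30.7 FPKM (28.96 to 32.4) in shRNA Bic/4AP and 7.999 (7.15 to 8.85) in shRNA untreated cultures. In vector cultures it was at 21.7 FPKM (20.3 to 23.2) with Bic/4AP and 5.79 (5.05 to 6.53) untreated. The ratios of 3.83 in shRNA and 3.76 in vector cultures lay close together, and both hairpin levels lay above their vector counterparts with bounds apart. Its promoter held a kappaB site, shown with its flanks because it was the only match among the 6 motifs searched in that window (GRCm38.p6, chr17:35821613-35821638, plus strand, 100 to 75 bases before the start).
Ier3: cgaagggcGGAGTTCCCCccggcccg
The capitals mark the kappaB site, read on the opposite strand, and 4.51% of all windows held one. Ier5 (chr1:156943497-156946766), a gene also induced by heat shock factor, was at 34.4 FPKM (33.4 to 35.4) in shRNA Bic/4AP, 14.8 (14.2 to 15.4) in shRNA untreated, 37.4 (36.4 to 38.5) in vector Bic/4AP and 15.5 (14.9 to 16.2) in vector untreated cultures. Its ratios were 2.33 in shRNA and 2.41 in vector cultures, just past the 2-fold mark on the log2(FPKM + 1) scale (1.16 and 1.22). The promoter windows of Ier5, Elk1 and Mkl1 held none of the 6 motifs.

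Csrnp1, which encodes a nuclear protein rich in cysteine and serine, had the largest Bic/4AP difference of the 10 genes at the pseudocount of 1. At a pseudocount of 5, Ier2 was above it in vector cultures (2.37 against 2.29). Csrnp1 (chr9:119880284-119893776) was at 36.9 FPKM (35.9 to 38.0) in shRNA Bic/4AP and 2.56 (2.29 to 2.84) in shRNA untreated cultures. In vector cultures it was at 28.6 FPKM (27.6 to 29.6) with Bic/4AP and 1.87 (1.63 to 2.11) untreated. The lowest of the 10 genes in both untreated libraries, it was above Srf and all its partners in both Bic/4AP libraries. The ratio was 14.4 (12.6 to 16.6) in shRNA cultures and 15.3 (13.1 to 18.2) in vector cultures, 20th of 13320 and 21st of 13217 genes from the highest difference. Of its 4 promoter windows, each had a CRE core. The third is shown in part because it held a pair of them, in capitals, on opposite strands (GRCm38.p6, chr9:119983798-119983849, minus strand, 70 to 19 bases before that start).
Csrnp1: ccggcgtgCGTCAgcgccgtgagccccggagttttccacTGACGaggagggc
The whole CRE, TGACGTCA, was in none of the windows given for the 8 genes and in 1.79% of all windows.

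The order of the 10 genes by level differed between treated and untreated libraries. Cyr61 led and Csrnp1 was last in both untreated libraries. In shRNA Bic/4AP cultures Csrnp1, Ctgf and Ier5 followed Cyr61 with bounds that overlapped from each to the next, as did those of Ier3 and Ier2. In vector Bic/4AP cultures Ctgf, Ier2, Ier5, Csrnp1 and Ier3 followed Cyr61, each with bounds apart from the next. Srf, Elk1, Mkl1 and Mkl2 filled the last 4 places in both Bic/4AP libraries.

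**Figure D3:**
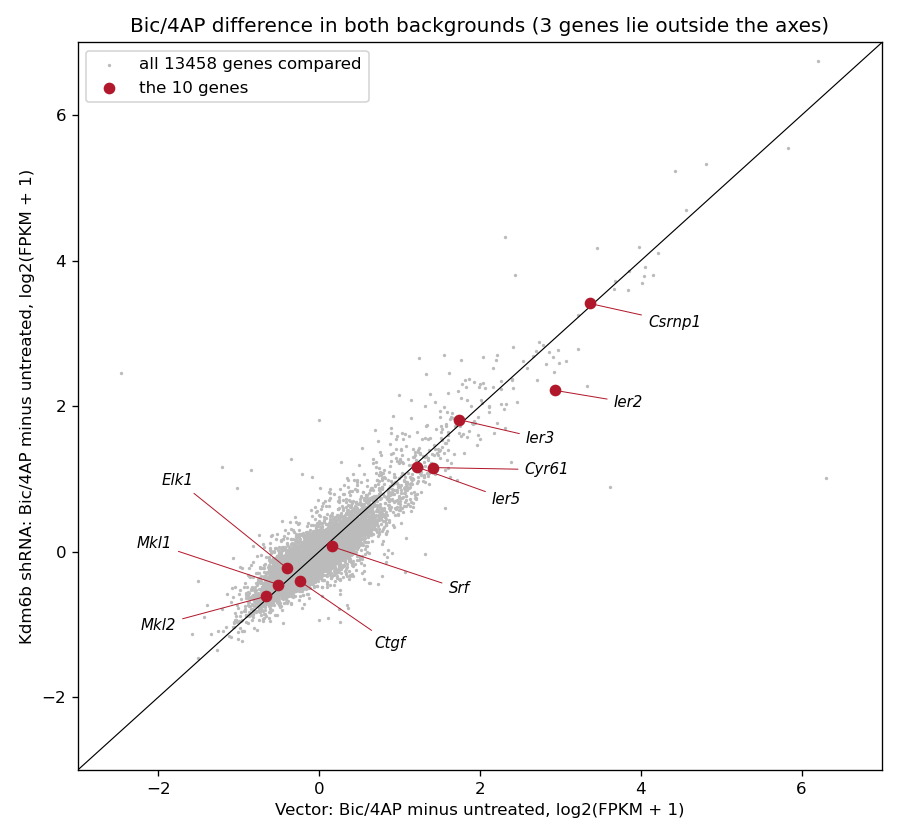
Bic/4AP difference in Kdm6b shRNA cultures (vertical axis) against that in vector cultures (horizontal axis), both in log2(FPKM + 1), for 13458 genes (grey, of which 3 lie outside the axes) and the 10 genes (red, joined to their names); the line marks equal differences. Csrnp1 and Ier3 lie near the line, and Ier2 lies below it at 2.22 (shRNA) and 2.94 (vector).

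Between hairpin and vector cultures, none of the 10 genes was 2-fold apart. With Bic/4AP, the call was made for 0.189% of 13240 genes in the higher and 0.536% in the lower direction, and in untreated cultures for 0.414% and 0.669% of 13295 genes. With Bic/4AP, bounds were apart for 2 genes in the higher direction (Ier3 and Csrnp1) and 5 in the lower (Mkl2, Cyr61, Ctgf, Ier2 and Ier5), where 28.6% and 21.1% of all genes were. In untreated cultures bounds were apart for 3 genes in the higher direction (Cyr61, Ier3 and Csrnp1) and 2 in the lower (Mkl2 and Ctgf), where the shares were 33.1% and 22.2%. The median difference of the 10 genes was -0.09 with Bic/4AP and -0.02 untreated, with an untreated sign that differed between scalings, beside 0.034 and 0.048 over all genes.

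Ier2 had the lowest hairpin difference with Bic/4AP, -0.71, a level 0.604 times the vector level (0.556 to 0.657), and 183rd from the lowest of 13240 genes. In untreated cultures its difference was 0.01. Ctgf was lower with the hairpin in both states, at 0.653 times the vector level (0.614 to 0.693) with Bic/4AP and 0.732 times (0.694 to 0.771) untreated, differences of -0.60 and -0.44. They ranked 268th of 13240 and 719th of 13295 genes from the lowest. Mkl2 was at 0.868 times the vector level with Bic/4AP and 0.841 times untreated. On the other side, Ier3 was at 1.41 times the vector level with Bic/4AP and 1.38 times untreated, and Csrnp1 at 1.29 and 1.37 times. Srf, Mkl1 and Elk1 had overlapping bounds in both states. Beside these values, microglia markers summed to 17.1 FPKM in shRNA Bic/4AP and 17.7 in shRNA untreated cultures, against 37.4 in vector Bic/4AP and 40.01 in vector untreated cultures. C1qa, C1qb and Tyrobp made up most of that gap, whereas P2ry12 was at 1.52 and 1.88 FPKM in shRNA Bic/4AP and untreated cultures, against 1.35 and 1.43 in the vector counterparts, and Aif1 at 3.66 and 4.41, against 3.53 and 4.73. Inhibitory neuron markers summed to 195.4 FPKM in shRNA Bic/4AP and 165.7 in shRNA untreated cultures, against 283.8 in vector Bic/4AP and 285.96 in vector untreated cultures. Astrocyte markers summed to 3062.5, 2714.7, 3005.4 and 2775.1 FPKM in the same order of libraries. The part of these markers in the hairpin differences was not tested.

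**Figure D4:**
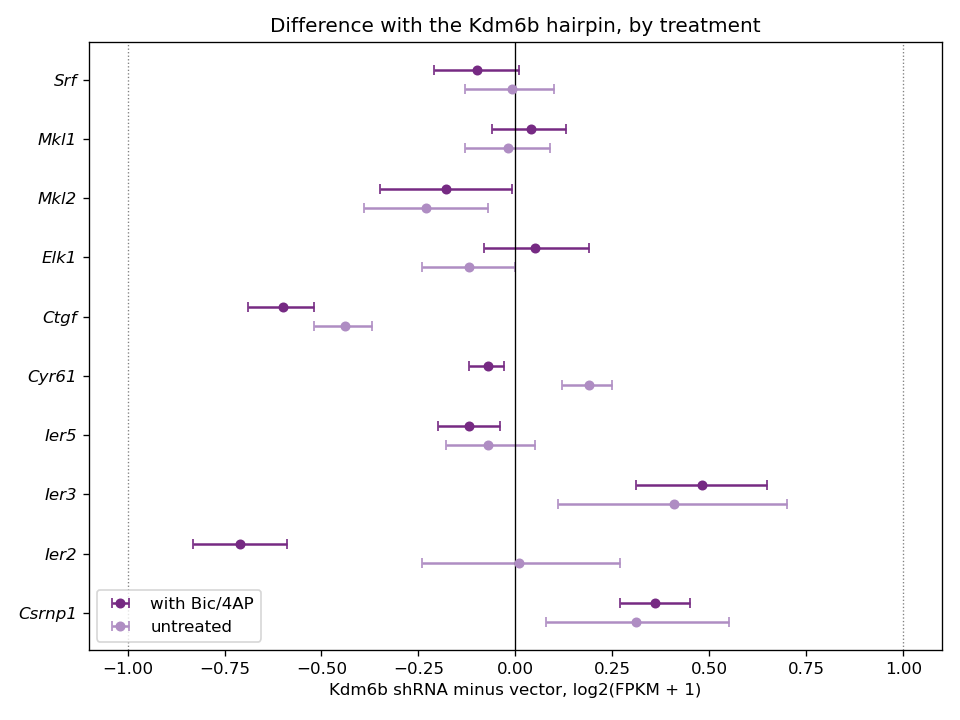
Difference between Kdm6b shRNA and vector cultures in log2(FPKM + 1) (horizontal axis) for each gene (rows), with Bic/4AP (dark purple, upper point) and untreated (light purple, lower point); lines are ranges from the authors' bounds and dotted lines mark 2-fold. Ctgf lies left of 0 in both states (-0.60 and -0.44), Ier3 right of 0 in both (0.48 and 0.41), and Ier2 left of 0 with Bic/4AP only (-0.71, against 0.01 untreated).

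The difference of responses, the Bic/4AP difference in shRNA cultures minus that in vector cultures, was below 2-fold for all 10 genes, where 0.111% of 13458 genes were 2-fold higher and 0.126% lower. Ier2 had the lowest value, -0.72, with a range from the bounds of -1.10 to -0.35, and was 35th from the lowest of all genes. Over all the scalings, pseudocounts and filters tried it lay between -0.93 and -0.65. Cyr61, at -0.26, was the only other gene whose range did not include 0, and the remaining 8 lay between -0.16 (Ctgf) and 0.17 (Elk1). The median of the 10 was -0.00, beside -0.018 over all genes.

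Immediate-early genes known as SRF targets, a list of 13 that includes Ier2, were all higher with Bic/4AP. Of the 13, 12 were 2-fold higher in shRNA cultures, where 2.08% of all genes were, and 13 in vector cultures, where 2.22% were. The medians were 3.79 and 3.98, beside -0.082 and -0.069 over all genes. Fosb differed by 6.74 in shRNA and 6.20 in vector cultures, and Fos, the partner of Jun proteins in AP-1, by 5.55 and 5.83. At the other end, Zfp36, which encodes a protein that destabilises mRNAs, differed by 1.34 and 1.68. Mcl1, an anti-apoptotic gene, differed by 0.55 in shRNA cultures, short of 2-fold, and by 1.05 in vector cultures. With Bic/4AP, the hairpin difference of the list had a median of -0.03. Ier2 was its lowest member, and the other 12 ran from -0.52 (Egr4) to 0.42 (Btg2). The difference of responses of those 12 ran from -0.50 (Mcl1) to 0.54 (Fosb), against -0.72 for Ier2.

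Cytoskeletal genes known as targets of SRF with the Mkl factors mostly differed little. Of 25 listed, 23 were compared, and 2 were 2-fold higher in shRNA cultures, Cnn1 (1.42) and Itga5 (1.36). In vector cultures 1 was, Itga5 (1.55), with Cnn1 at 0.96. Over all genes the shares 2-fold higher were 2.08% in shRNA and 2.22% in vector cultures. Itga5, an integrin subunit gene, was at 12.1 FPKM in shRNA Bic/4AP, 4.07 in shRNA untreated, 15.2 in vector Bic/4AP and 4.55 in vector untreated cultures. Cnn1, the gene of the actin-binding protein calponin, was at 21.3, 7.34, 22.6 and 11.2 FPKM in the same libraries. The lowest members in vector cultures were Fhl2, which encodes a LIM protein (-0.59 in shRNA and -0.70 in vector cultures), and Tgfb1i1 (-0.35 and -0.41). The median was 0.00 in shRNA cultures, where its sign differed between scalings, and 0.15 in vector cultures. The difference of responses was below 0 for 17 of 23 genes, with a median of -0.17, beside -0.018 over all genes. The larger part of all genes thus also lay below 0, and whether this list differed from other genes was not tested.

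Genes of the ERK arm upstream of SRF differed little with Bic/4AP, and none was 2-fold apart in either background. Of 15 listed genes, 14 were compared, with 4 above 0 and 10 below in each background and medians of -0.19 in shRNA and -0.20 in vector cultures. Rps6ka3, an ERK-activated kinase gene, was highest at 0.47 and 0.64, followed in vector cultures by Nras at 0.15. Rps6ka5 was at -0.30 in shRNA and -0.53 in vector cultures, and Rps6ka2 at -0.22 and -0.37. Araf, which encodes a RAF kinase, was the only one of the 14 that was 2-fold apart between hairpin and vector. It was at 24.0 FPKM in shRNA Bic/4AP and 28.5 in shRNA untreated cultures, against 82.8 in vector Bic/4AP and 94.5 in vector untreated cultures, differences of -1.74 with Bic/4AP and -1.69 untreated. Over all genes, 0.536% were 2-fold lower with the hairpin with Bic/4AP and 0.669% untreated.

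The YAP and TEAD pathway, which shares Cyr61 and Ctgf as targets with SRF, was described by 14 other genes, of which 11 were compared and none was 2-fold apart. With Bic/4AP the median was 0.23 in shRNA and 0.51 in vector cultures. Yap1, the coactivator gene, differed by 0.38 and 0.73, and Tead1, the gene of a DNA-binding partner, by 0.49 and 0.63. Fjx1 was lowest in both backgrounds (-0.19 and -0.13), and Axl differed by 0.01 and 0.03. The difference of responses lay below 0 for 11 of 11 genes, with a median of -0.20, beside -0.018 over all genes. The larger part of all genes thus lay below 0 as well, and Tead2 and Axl, each at -0.02, were near the median of all genes. It was below 0 for all 11 under the 4 other scalings too, with medians from -0.39 to -0.19. A scaling shifts all genes by nearly the same amount, so this count adds no support to the 11 of 11. Cyr61 and Ctgf were at -0.26 and -0.16, and the range of Ctgf from the bounds, -0.32 to 0.00, reached 0. Whether the list differed from other genes was not tested.

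**Figure D5:**
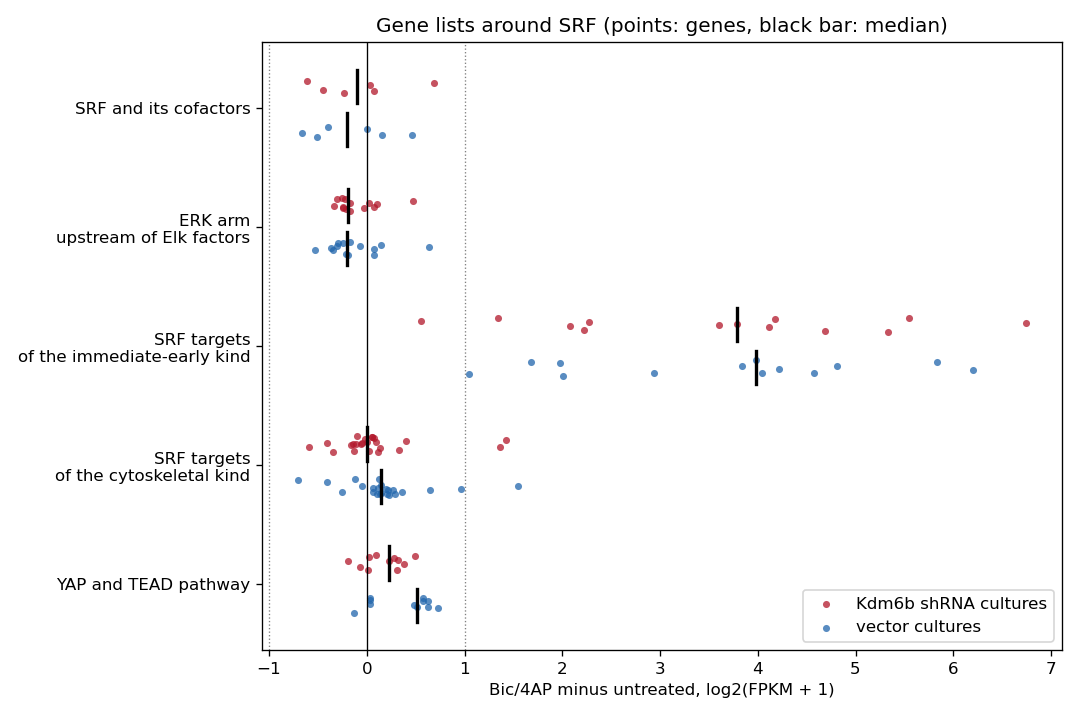
Difference between Bic/4AP and untreated cultures in log2(FPKM + 1) (horizontal axis) for the genes of 5 lists around SRF (rows), in Kdm6b shRNA cultures (red, upper row of points) and vector cultures (blue, lower row); each point is a gene, black bars are medians and dotted lines mark 2-fold. The immediate-early targets have medians of 3.79 (shRNA) and 3.98 (vector). The other lists have medians between -0.20 and 0.51, the highest that of the YAP and TEAD pathway in vector cultures.

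For each of the 5 genes that were 2-fold apart, the genes nearest in pattern were sought among 13458. Likeness was the largest gap over 3 differences, each library against vector untreated, so a small gap means a like pattern over these 4 libraries. Nearest to Cyr61 were Pde12 (gap 0.03), Oxnad1 (0.05) and Rasl11a (0.08). Nearest to Ier5 were Rnd3, Coq10b and Ccnl1, each at 0.06, and nearest to Ier3 were Olfr1260 (0.14), Tsc22d2 (0.19) and Dnajb1 (0.24). Ier2 and Csrnp1 had no neighbour so close. Ier2 was nearest to Fosl1 (0.31), a gene of the Fos family, and to Gadd45g (0.35) and Gadd45b (0.36), and Csrnp1 to Maff (0.47), Egr2 (0.48) and the chemokine gene Cxcl1 (0.49). Olfr1260 was at 0.856 (shRNA) and 0.548 FPKM (vector) untreated, and at 5.60 and 3.77 with Bic/4AP. Fosl1 was at 0.744 and 0.787 FPKM untreated, and at 9.42 and 11.7 with Bic/4AP. With untreated levels under the pseudocount of 1, their ratios were larger than those of Ier3 and Ier2 despite the small gaps.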

How the data were processed

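PolyA-enriched RNA was sequenced from 4 cultures, 1 library per group. The deposited tables give FPKM per row with lower and upper bounds, computed by the authors with Cufflinks per the file headers. Tools listed in the submitters' processing notes are Cufflinks 2.0.2, TopHat2 2.0.8b and CASAVA 1.8, the build is mm9, and the annotation is not given in the sources used here. No counts were used, so the depth in reads is unknown and was compared only through the width of the bounds.

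Rows (22878 per table) were summed per symbol. Left out were symbols whose FPKM the authors' tables mark as failed in any library (42 rows, none of the 10 genes) and 728 small RNA symbols. Genes under 1 FPKM in every library of a comparison were not compared. Differences used a pseudocount of 1, and a difference of at least 1 was called 2-fold. With 1 library per group no test was made. Ranges of ratios set the lower bound of one library against the upper bound of the other. Start positions, which count from 0 in the tables (551 of 561 microRNA genes had a length equal to end minus start), are given counted from 1. Promoter windows and their sequences are from RefSeq (GRCm38.p6), matched by symbol or synonym, and no coordinates were converted between builds. A CArG box was CC, 6 bases of A or T, then GG, motifs were searched on both strands, and the CRE core (TGACG) lies within the whole CRE.

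The 10 genes and the gene lists were chosen with earlier results of these data known, so no list is independent support for its direction. Named genes were Kdm6b, the 10 genes, all members of lists of up to 7 genes, and of longer lists the 2 largest and 2 smallest Bic/4AP differences in vector cultures and any gene 2-fold apart between hairpin and vector. Genes named only as the ends of a range, as members of a marker list or as 2-fold apart in shRNA cultures fall outside that rule and were chosen after their values were seen. Hras and Ajuba were not found under those symbols. A further list is not reported here. Of the alternatives, 10 were planned (pseudocount, filter, scaling, bounds, rows per symbol, small RNA genes) and 1, scaling to the sum of all rows, was added after the data were seen. Code ran in Python 3.11.15 with pandas 2.3.3 and numpy 2.4.6, and was tested on simulated data.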

Additional observations from a re-analysis of the deposited data

Results flagged for a closer look

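For 4 of the 10 genes the hairpin difference had opposite signs with Bic/4AP and untreated. With 1 library per group, the difference between the states was not tested. For Ier2 it was -0.71 with Bic/4AP and 0.01 untreated, a difference of -0.72, and its untreated value had overlapping bounds and was -0.04 under median-ratio scaling and -0.01 under upper-quartile scaling. For Cyr61 it was -0.07 with Bic/4AP and 0.19 untreated, a difference of -0.26, with bounds apart in both states. For Elk1 it was 0.05 with Bic/4AP and -0.12 untreated, a difference of 0.17, and for Mkl1 it was 0.04 and -0.02, a difference of 0.06. Both of these genes had overlapping bounds in both states, and with Bic/4AP Mkl1 was at -0.01 under median-ratio scaling and Mkl1 and Elk1 at -0.10 and -0.08 when libraries were scaled to the sum of all rows.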

How the results depend on the processing

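No paired analysis was possible because each group was 1 library. Of 40 differences (10 genes in 4 comparisons), none was reversed past the 2-fold mark under any alternative. Such a reversal would take a far larger shift than these alternatives made, so its absence says little about stability. The sign changed for 6 of the 40 when libraries were scaled to the sum of all rows. It changed for 2 under median-ratio scaling and for 1 under upper-quartile scaling. The 2-fold count in shRNA cultures with Bic/4AP was 3 instead of 5 when libraries were scaled to the sum of all rows, small RNA genes included, since Cyr61 was then at 0.97 and Ier5 at 0.99. That scaling was chosen after seeing the data. It moved the median of all genes by -0.164 for Bic/4AP in shRNA cultures and by -0.133 between hairpin and vector with Bic/4AP, put the Srf difference in shRNA cultures at -0.10 and put the median difference of responses of the 10 genes at -0.21 instead of -0.00. A pseudocount of 5 put Ier5 in shRNA cultures at 0.99. Over all genes, 2-fold counts moved by over 1.5 times mainly with the pseudocount. At 5, the higher counts with Bic/4AP were 160 instead of 277 in shRNA and 171 instead of 294 in vector cultures, and the lower counts 1 instead of 21 and 0 instead of 36. At 0.1, the lower counts were 97 and 130. Median-ratio scaling gave 22 lower in vector cultures, the sum of all rows 60 lower in shRNA cultures, and keeping small RNA genes 92 lower in each. Between hairpin and vector with Bic/4AP, 25 were higher and 71 lower, against 105 and 115 at a pseudocount of 0.1, 4 and 26 at 5, and 79 and 133 with small RNA genes kept. There, 13 were higher at an FPKM of at least 5 and 16 with the sum of all rows. Untreated, 55 were higher and 89 lower, against 149 and 149 at 0.1, 11 and 32 at 5, and 117 and 160 with small RNA genes kept. The bounds, whose model is not stated, each come from 1 library, so the spread between cultures is unknown for every value.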

Other observations

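Of the remaining members of the 3 gene families, Wisp1 alone reached 2-fold with Bic/4AP, in shRNA cultures. Wisp1, a CCN gene, was at 3.52 FPKM in shRNA Bic/4AP, 1.23 in shRNA untreated, 3.40 in vector Bic/4AP and 1.21 in vector untreated cultures. Its differences of 1.02 in shRNA and 0.99 in vector cultures lay on either side of the 2-fold mark. Wisp2 was at 47.8 FPKM in shRNA Bic/4AP and 60.2 in shRNA untreated cultures, against 65.1 in vector Bic/4AP and 51.1 in vector untreated cultures. Its Bic/4AP difference thus had opposite signs, -0.33 in shRNA and 0.34 in vector cultures. Nov, a further CCN gene, was at 72.8, 79.4, 53.4 and 73.1 FPKM in the same order of libraries, with differences of -0.12 in shRNA and -0.45 in vector cultures. Wisp3 was below 1 FPKM in every library. Ier5l, a relative of Ier5, differed by -0.23 in shRNA and 0.12 in vector cultures, and its hairpin difference was -0.52 with Bic/4AP and -0.17 untreated. Csrnp2 differed by -0.09 in shRNA and -0.07 in vector cultures, and Csrnp3 by 0.04 and 0.01. Csrnp3 was higher with the hairpin by 0.40 with Bic/4AP and 0.37 untreated, close to the values of Csrnp1 (0.36 and 0.31).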
